A study of Arabidopsis thaliana with 9 samples.

Results

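Glutathione transferases are enzymes that join the tripeptide glutathione to reactive or foreign molecules, or use it to reduce them. In Arabidopsis thaliana they were taken as 52 genes listed by locus in 6 classes. These were 28 tau genes, 13 phi, 2 zeta, 3 theta, 3 lambda and 3 dehydroascorbate reductase (DHAR) genes. On the arrays used, 14 of the 52 were on a probe set that the probe table assigns to them alone, 11 of them tau, 2 phi and 1 lambda. The other 38, with every zeta, theta and DHAR gene among them, are on no probe set that the table names, shared ones included, and were not analysed here.

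The series holds 9 Affymetrix ATH1 arrays, each with RNA of whole roots, from biological triplicates of 3 genotypes. Roots of ga1-3 seedlings that overexpress SCL3 (SCL3 OE), roots of ga1-3 scl3-1 double mutants (called scl3-1 below) and roots of ga1-3 seedlings were compared, all 7 days after germination. Every plant therefore carried ga1-3, a mutation of the gibberellin biosynthesis gene GA1, and no plants with a working GA1 are among the samples analysed here. SCL3 encodes a GRAS protein, of the family that also holds the DELLA proteins, which repress gibberellin responses, and scl3-1 is a loss-of-function allele of it. The promoter that drives the SCL3 transgene and the number of independent lines are not given in the sources used here. Neither SCL3 nor GA1 is on a probe set that the table names, so the manipulated genes were not checked by signal.

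Tau and phi transferases are plant classes with a catalytic serine, induced by many herbicides, oxidants, oxylipins and hormones, and several of them conjugate xenobiotics to glutathione for storage in the vacuole. Lambda and DHAR enzymes carry a cysteine in its place and act as thiol-dependent reductases. Many tau and phi genes lie side by side in the genome as tandem copies. TGA bZIP factors together with the GRAS protein SCL14, another relative of SCL3, are known to activate detoxification genes in Arabidopsis.

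Values are MAS5 signals, the linear-scale summary of a probe set that the authors deposited, which were taken to log2 for testing. A probe set was tested when 3 or more of the 9 arrays reached the 40th percentile of that array, a signal of 105.9 on average. GSTU15 and GSTU21 lay below that level on all 9 arrays, which leaves 12 tested genes. GSTU18 passed only through its 3 SCL3 OE arrays and so had to differ. A gene was called at a limma adjusted p under 0.05 over all 14117 tested probe sets. Signals of a probe set are compared between samples, and levels of different genes are not ranked against each other. Median array signals were 183 to 185 in SCL3 OE, 195 to 204 in scl3-1 and 190 to 201 in ga1-3, and the share of summed signal on the 100 brightest probe sets was 9.33% to 10.6% in SCL3 OE, 6.66% to 7.27% in scl3-1 and 6.54% to 7.64% in ga1-3. Of 15 root markers, 2 are on named probe sets, EXPA7 and AT1G09750, and neither is at 0. Their summed signal was 1323 to 1351 in SCL3 OE, 2433 to 2925 in scl3-1 and 2187 to 2448 in ga1-3. Of 12 green tissue markers, LHCB4.1 and RCA are on named probe sets, summing to 1830 to 1871 in SCL3 OE, 1936 to 2210 in scl3-1 and 1764 to 1921 in ga1-3. In whole roots, fewer cells of a type and less RNA per cell cannot be told apart, and the part of tissue makeup in the changes below was not tested.

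**Figure D1:**
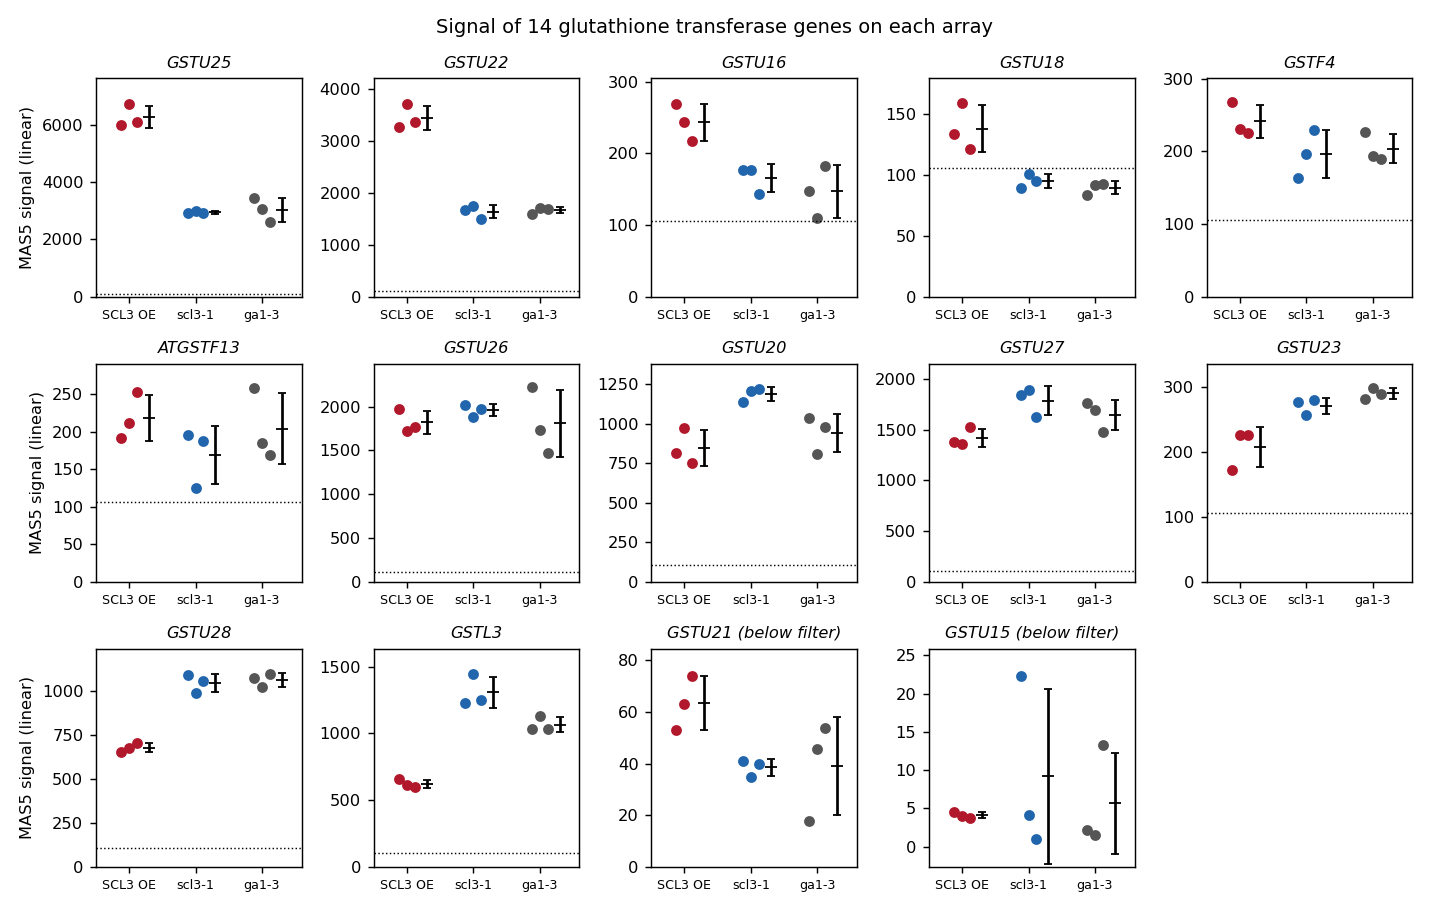
MAS5 signal (linear axis) of the 14 transferase genes on each array, with SCL3 OE, scl3-1 and ga1-3 side by side. Points are arrays, the bar beside them is the mean with its SD (n = 3), and the dotted line is the mean filter level of 105.9. GSTU25 and GSTU22 are high on all 3 SCL3 OE arrays, GSTL3 and GSTU28 low on them, while GSTU21 and GSTU15 stay under the line on all 9.

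With SCL3 overexpressed, tau genes moved in both directions and the lambda gene fell. GSTU25 and GSTU22 rose about as much as each other, GSTU16 and GSTU18 rose less, and GSTL3, GSTU28 and GSTU23 fell relative to ga1-3. That made 7 of 12 tested genes called, beside 43.8% of all tested probe sets. Of the 12, 4 were higher and 3 lower, beside 18% and 25.9% of all tested probe sets. Without GSTU18 it was 6 of 11. The 3 arrays of each group did not overlap for these 7 genes alone, beside 53.6% of all tested probe sets. Neither of the 2 tested phi genes was called. The median log2 change of the 12 genes was 0.07, beside -0.07 over all tested probe sets, and their changes ran from -0.78 to 1.06.

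GSTU25 (AT1G17180) encodes a tau enzyme known for conjugating the explosive TNT to glutathione. Its signals were 6021, 6738 and 6125 in SCL3 OE, against 3435, 3049 and 2606 in ga1-3. Every SCL3 OE array was above every ga1-3 array, and the nearest arrays of the groups were 1.75-fold apart. The rise was 2.09-fold (log2 change 1.06, SE 0.10, 95% interval 0.85 to 1.28, adjusted p = 9.78e-07). It was 0.77 on the log2 scale after quantile normalization.

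GSTU22 (AT1G78340), also of the tau class, gave 3262, 3710 and 3355 in SCL3 OE, against 1592, 1711 and 1687 in ga1-3. The groups did not overlap and their nearest arrays were 1.91-fold apart, the widest such gap among the tested transferase genes in this comparison. It rose 2.07-fold (log2 change 1.05, SE 0.09, adjusted p = 4.55e-07). Of all tested probe sets, 1.99% rose more than GSTU22 and 1.92% rose more than GSTU25. These were the 2 transferase genes called at 2-fold or more, a rise shared by 2.22% of all tested probe sets. Both lay close to that limit. After quantile normalization their log2 changes were below it, at 0.77 for GSTU25 and 0.97 for GSTU22. GSTU25 was also below it without ga1-3 replicate 3 (0.96), and GSTU22 without SCL3 OE replicate 2 (0.99).

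GSTU16 (AT1G59700) had signals of 269, 244 and 217 in SCL3 OE, against 148, 110 and 183 in ga1-3. The lowest SCL3 OE array lay 1.19-fold above the highest ga1-3 array, and the ga1-3 arrays were spread widely, so the size of the 1.69-fold rise is less certain (log2 change 0.75, SE 0.18, adjusted p = 0.00329). GSTU18 (AT1G10360) gave 133, 159 and 121 in SCL3 OE, against 83.3, 91.9 and 92.8 in ga1-3, with all 3 ga1-3 arrays below the filter level. Its 1.54-fold rise was called (log2 change 0.62, SE 0.17, adjusted p = 0.00841). With an offset of 50 before log2, which damps dim signals, the changes were 0.59 for GSTU16 and 0.43 for GSTU18.

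Among the genes that fell, GSTL3 (AT5G02790) had the largest change. It encodes a lambda transferase, of the class that reduces glutathione conjugates. Signals were 656, 611 and 596 in SCL3 OE, against 1034, 1130 and 1031 in ga1-3, with tight replicates in each group and no overlap. The log2 change was -0.78 (SE 0.10, 95% interval -0.99 to -0.57, adjusted p = 1.61e-05). GSTU28 (AT1G53680) gave 651, 677 and 703 in SCL3 OE, against 1075, 1020 and 1100 in ga1-3. It too was lower on every SCL3 OE array, with a log2 change of -0.65 (SE 0.09, adjusted p = 4.16e-05). GSTU23 (AT1G78320) had 173, 225 and 226 in SCL3 OE, against 281, 299 and 289 in ga1-3. Its fall was smaller (-0.49, SE 0.13, adjusted p = 0.00691), and 1 SCL3 OE array lay well below the other two.

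These 7 calls were kept in each alternative model, filter and scaling that tested the gene, and without any 1 array, while the 2-fold minimum kept GSTU25 and GSTU22. The other 5 genes had intervals that include 0. GSTU27 (AT3G43800) gave 1376, 1359 and 1523 in SCL3 OE, against 1760, 1692 and 1478 in ga1-3, and missed the threshold at -0.21 (SE 0.10, adjusted p = 0.101). It was called as lower without ga1-3 replicate 3 (-0.28, adjusted p = 0.041), the lowest ga1-3 array for this gene. GSTU20 (AT1G78370), which interacts with the jasmonate-conjugating enzyme FIN219 and has been tied to glucosinolate synthesis, changed by -0.16 (95% interval -0.40 to 0.09). GSTU26 changed by 0.03 (-0.24 to 0.29). The phi genes GSTF4 and ATGSTF13 (GSTF13) changed by 0.25 (-0.07 to 0.56) and 0.12 (-0.30 to 0.53). These intervals do not exclude a change of up to 0.56 in GSTF4 or 0.53 in ATGSTF13.

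**Figure D2:**
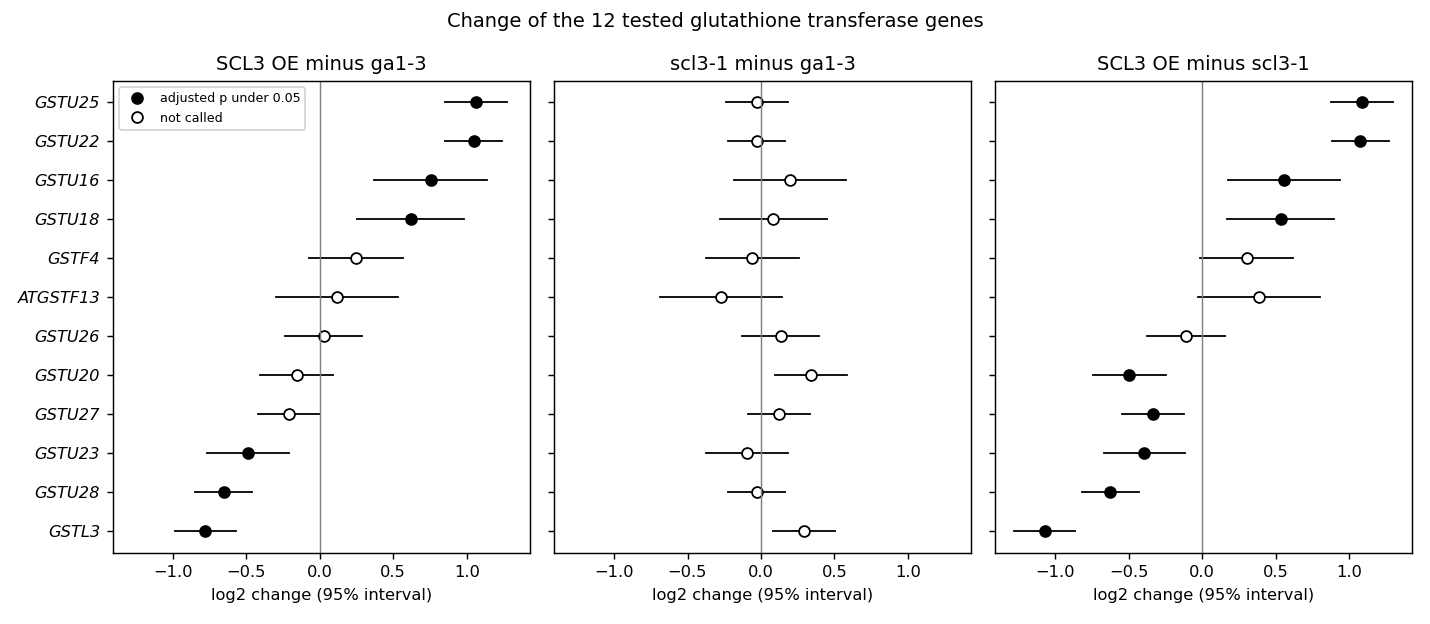
Log2 change of the 12 tested genes in each comparison (x axis), with 95% intervals from the limma model over 9 arrays, ordered by the change in SCL3 OE minus ga1-3. Filled points were called and open points were not. The left and right panels hold 7 and 9 filled points that lie on both sides of 0, and the middle panel holds 0.

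Loss of SCL3 in the same gibberellin-deficient background moved no tested transferase gene past the threshold. Of the 12 genes limma called 0 in scl3-1 against ga1-3, beside 0.538% of all tested probe sets. An unadjusted limma p under 0.05 was found for 2 of the 12, beside 1506 of all 14117 tested probe sets. The changes ran from -0.27 to 0.34 with a median of 0.03, beside 0.01 over all tested probe sets. The groups did not overlap for 3 genes, beside 14.1% of all tested probe sets. The count of calls was 0 in every alternative run.

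The lambda gene GSTL3 had the smallest p. It gave 1228, 1444 and 1249 in scl3-1, against 1034, 1130 and 1031 in ga1-3. All scl3-1 arrays were above all ga1-3 arrays, with a log2 change of 0.29 (SE 0.10, 95% interval 0.09 to 0.50, adjusted p = 0.265). GSTU20 had 1137, 1208 and 1219 in scl3-1, against 1039, 812 and 977 in ga1-3. Here again the scl3-1 arrays were the higher ones without overlap (0.34, SE 0.12, 95% interval 0.09 to 0.59, adjusted p = 0.273). GSTU23 was the other gene without overlap, at 277, 257 and 279 in scl3-1 and 281, 299 and 289 in ga1-3, but the nearest arrays differed by 1.01-fold and the change was -0.10 (SE 0.13, adjusted p = 0.87).

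ATGSTF13 and GSTU27 came next by p, and their groups overlapped. ATGSTF13 (AT3G62760) gave 196, 125 and 188 in scl3-1, against 258, 186 and 169 in ga1-3 (-0.27, SE 0.20, adjusted p = 0.691). GSTU27 gave 1845, 1891 and 1630 in scl3-1, against 1760, 1692 and 1478 in ga1-3 (0.12, SE 0.10, adjusted p = 0.735). For GSTU22, GSTU25 and GSTU28, which changed in SCL3 OE, the scl3-1 signals averaged 1633 ± 125, 2954 ± 46.3 and 1045 ± 53.0, against 1663 ± 63.2, 3030 ± 414 and 1065 ± 40.5 in ga1-3 (SD, n = 3). Their changes in scl3-1 were each -0.03, and their 95% intervals together span -0.24 to 0.19. GSTU16 and GSTU18, also called in SCL3 OE, changed by 0.20 (95% interval -0.19 to 0.58) and 0.09 (-0.28 to 0.45) in scl3-1. Those wider intervals do not exclude a change of up to 0.58 in GSTU16 or 0.45 in GSTU18. GSTU26 and GSTF4 changed by 0.13 (-0.13 to 0.40) and -0.06 (-0.38 to 0.26) in scl3-1.

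The direct comparison of SCL3 OE with scl3-1 does not use the ga1-3 level. Of 12 genes, 9 were called, beside 39.2% of all tested probe sets, and the groups did not overlap for these 9 alone, beside 52.8%. In SCL3 OE 4 were higher and 5 lower, beside 15.5% and 23.6% of all tested probe sets. That balance turned with the scaling, to 6 higher and 4 lower after quantile normalization and to 6 higher and 3 lower with median-centred arrays. Calls over all tested probe sets shifted the same way. Of those calls, 39.6% were higher as deposited, 49.2% by quantiles and 59% with median-centred arrays. The shares of probe sets called under these other scalings were 33.4% and 38%. As deposited and without GSTU18, 8 of 11 were called. GSTL3 differed most among those lower, at 656, 611 and 596 in SCL3 OE, against 1228, 1444 and 1249 in scl3-1. Its highest SCL3 OE array lay 1.87-fold below its lowest scl3-1 array, and the log2 change was -1.07 (SE 0.10, adjusted p = 7.44e-07). GSTU20, with 816, 974 and 751 in SCL3 OE, against 1137, 1208 and 1219 in scl3-1, was lower by a log2 change of -0.50 (SE 0.12, adjusted p = 0.00338), although neither line differed from ga1-3 for this gene by the test. GSTU28 was lower too (-0.63, SE 0.09).

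The tau genes GSTU25 and GSTU22 were higher in SCL3 OE than in scl3-1 by 2.13-fold and 2.11-fold (log2 changes 1.09 and 1.08). Some smaller differences kept their direction but lost their call in alternatives. GSTU16 (0.56, adjusted p = 0.0227) lost its call when replicate 3 of scl3-1 was left out (adjusted p = 0.0966), or replicate 1 (0.0893) or 2 (0.0616) of SCL3 OE, with changes of 0.45 to 0.55 there. GSTU18 (0.53, adjusted p = 0.0216) lost it on leaving out replicate 1 (0.0607) or 3 (0.0569) of scl3-1 or replicate 2 of SCL3 OE (0.0995), and with no dim filter (0.0563), with changes of 0.43 to 0.53. GSTU23 (-0.39, adjusted p = 0.0265) lost it on leaving out replicate 1 (0.061) or 3 (0.0799) of scl3-1 or replicate 1 of SCL3 OE (0.143), and under both other scalings (0.156 by quantiles, 0.116 with median-centred arrays), with changes of -0.38 to -0.25. GSTU27 (-0.33, adjusted p = 0.015) lost it when replicate 2 of scl3-1 (0.0623) or replicate 1 (0.058) or 2 (0.0634) of SCL3 OE was absent, and with median-centred arrays (0.119), with changes of -0.31 to -0.21. The phi genes GSTF4 (0.30, adjusted p = 0.12) and ATGSTF13 (0.39, adjusted p = 0.129) were not called, but passed under both other scalings, at 0.0234 and 0.0485 by quantiles and at 0.0273 and 0.0431 with median-centred arrays. ATGSTF13 also passed with array weights (0.0457).

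**Figure D3:**
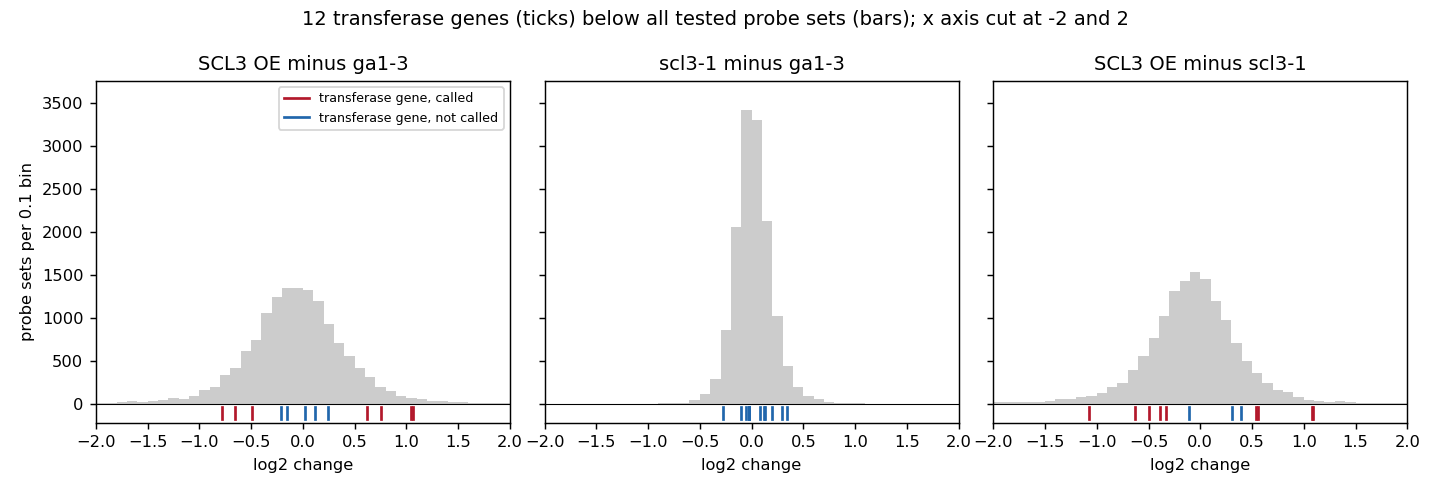
Log2 changes of all 14117 tested probe sets as grey bars (probe sets per bin of 0.1, x axis drawn from -2 to 2), with the 12 transferase genes as ticks below, red where called and blue where not. In SCL3 OE minus ga1-3 the 2 ticks farthest right are GSTU22 and GSTU25, at 1.05 and 1.06, where few probe sets lie. In scl3-1 minus ga1-3 all ticks are blue and lie between -0.27 and 0.34.

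Values of genes that lie next to each other in the genome are set side by side here as a description, since the pairs were chosen after their values were seen. In the gene order of the TAIR10.1 assembly, used here for order only, GSTU25 and GSTU26 are adjacent, with GSTU24 on the other side of GSTU25. GSTU23, GSTU22, GSTU21, GSTU20 and GSTU19 follow each other without another protein-coding gene between them. GSTU24 and GSTU19 are on no named probe set and were not analysed. In the first group GSTU25 rose in SCL3 OE, while GSTU26 gave 1969, 1717 and 1769 in SCL3 OE, against 2224, 1734 and 1473 in ga1-3. In the second, GSTU22 rose beside GSTU23, which fell, and GSTU20 was not called.

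Taking the log2 difference between neighbours on each array removes a factor common to the whole array, but not a shift that depends on brightness. The difference GSTU25 minus GSTU26 was 1.61 to 1.97 in SCL3 OE and 0.63 to 0.82 in ga1-3, so the changes of these neighbours differed by 1.04. For GSTU22 minus GSTU23 it was 3.89 to 4.24 in SCL3 OE and 2.50 to 2.54 in ga1-3, a difference in change of 1.54. For GSTU22 minus GSTU20 it was 1.93 to 2.16 in SCL3 OE and 0.61 to 1.08 in ga1-3, a difference in change of 1.20. None of these ranges overlapped. These values are on the deposited scaling, and the gaps were smaller by quantiles. After quantile normalization the changes in SCL3 OE against ga1-3 were 0.77 for GSTU25 and 0.06 for GSTU26. In that setting they were 0.97 for GSTU22, -0.37 for GSTU23 and -0.05 for GSTU20. GSTU20 minus GSTU23 had overlapping ranges, 1.73 to 2.24 in SCL3 OE and 1.44 to 1.89 in ga1-3. In scl3-1 the differences with GSTU20 lay apart from ga1-3. GSTU22 minus GSTU20 was 0.30 to 0.54 in scl3-1 and 0.61 to 1.08 in ga1-3, lower in scl3-1 where it was higher in SCL3 OE, and GSTU20 minus GSTU23 was 2.04 to 2.23 in scl3-1 and 1.44 to 1.89 in ga1-3. The ranges of the other pairs overlapped in scl3-1 and ga1-3. Cross-hybridisation between tandem copies was not checked.

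**Figure D4:**
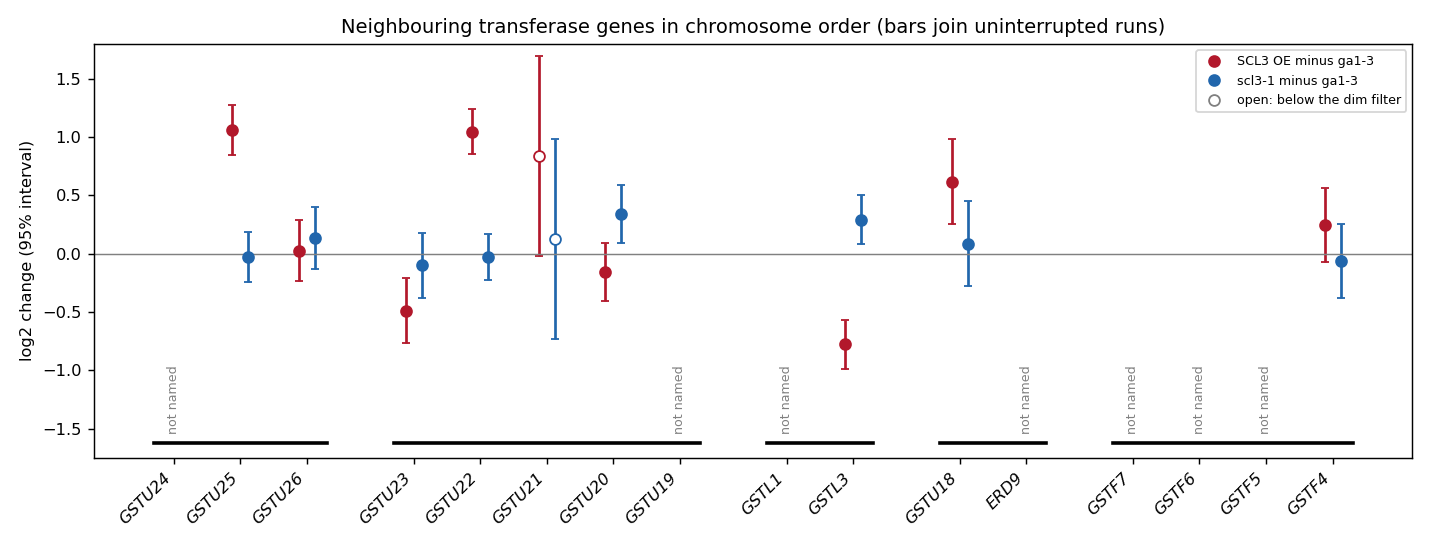
Log2 change against ga1-3 with 95% intervals (y axis) for transferase genes that follow each other on a chromosome, SCL3 OE in red left of scl3-1 in blue, with genes in chromosome order and equal spacing. Black bars join runs with no other protein-coding gene between, open points are below the dim filter, and genes on no named probe set carry no value. GSTU25 stands at 1.06 beside GSTU26 at 0.03, and GSTU22 at 1.05 beside GSTU23 at -0.49.

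GSTU21 and GSTU15, on probe sets of their own but not tested, were dim. GSTU21, inside the second run, gave 53.2, 63.3 and 74.1 in SCL3 OE, 41.2, 34.7 and 39.9 in scl3-1 and 17.7, 45.7 and 53.9 in ga1-3. Its SCL3 OE arrays overlapped those of ga1-3, and without the filter its change was 0.84 (SE 0.40, adjusted p = 0.143). GSTU15 lay between 1.1 and 22.3 on all 9 arrays, with no order of groups.

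Genes of glutathione use and of pathways that hold a transferase step were read from the same model. Of 97 listed genes, 13 were on named probe sets and 9 were tested, so each pathway rests on 1 or 2 genes. In SCL3 OE against ga1-3, 5 rose and 3 fell, beside 18% and 25.9% of all tested probe sets, and without UGT84A3, which passed the filter only through its SCL3 OE arrays, 4 rose and 3 fell of 8. In scl3-1 against ga1-3 limma called 0 of 9, beside 0.538% of all tested probe sets. An unadjusted limma p under 0.05 was found for 3 of the 9, beside 1506 of all 14117 tested probe sets. None of the listed glutathione peroxidase-like, conjugate transporter, tyrosine degradation, catalase or superoxide dismutase genes was on a named probe set.

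GR1, the glutathione reductase gene of cytosol and peroxisomes that keeps glutathione reduced, rose in SCL3 OE. It gave 5810, 6450 and 6071 in SCL3 OE, against 2313, 2742 and 2570 in ga1-3, without overlap (log2 change 1.27, SE 0.12, adjusted p = 1.13e-06). The organellar reductase gene GR was not called (0.24, SE 0.13, adjusted p = 0.164; 0.0426 with ga1-3 replicate 3 left out), which made 1 of 2 tested genes of glutathione synthesis and turnover. Of the ascorbate-glutathione cycle, in which DHAR enzymes act, 2 of 13 listed genes were tested and both were called higher, beside 18% of all tested probe sets. The monodehydroascorbate reductase gene ATMDAR2 gave 4542, 4585 and 4299 in SCL3 OE, against 3853, 3052 and 2854 in ga1-3 (0.47, SE 0.11, adjusted p = 0.00283). The ascorbate peroxidase gene SAPX gave 3901, 3837 and 3951 in SCL3 OE, against 3241, 2798 and 3412 in ga1-3 (0.31, SE 0.10, adjusted p = 0.0202). The groups did not overlap for either gene, as for 53.6% of all tested probe sets. Quantile normalization ended both calls (adjusted p = 0.129 and 0.276), and that of SAPX also ended on leaving out replicate 2 of ga1-3 (0.0967) or replicate 1 (0.056) or 3 (0.0621) of SCL3 OE.

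CHIL, a chalcone isomerase-like gene of flavonoid synthesis, was the only tested gene of the flavonoid list. It gave 4247, 4378 and 4062 in SCL3 OE, against 1717, 1268 and 856 in ga1-3, a rise of 1.78 on the log2 scale (SE 0.17, adjusted p = 1.06e-06). DFR, UF3GT and AT4G14090, late anthocyanin genes, lay below the filter level on all arrays. Of the glucosinolate lists, 2 of 14 aliphatic genes and 1 of 10 indole genes were tested, and these 3 genes were called lower, beside 25.9% of all tested probe sets. BCAT4, an aminotransferase of methionine chain elongation, gave 2051, 2611 and 2090 in SCL3 OE, against 4020, 5149 and 5207 in ga1-3 (-1.09, SE 0.15). The glucosyltransferase gene AT2G31790 of the aliphatic list gave 544, 645 and 509 in SCL3 OE, against 957, 921 and 937 in ga1-3 (-0.74, SE 0.11). UGT74B1, the glucosyltransferase gene of the indole list, gave 1353, 1307 and 1165 in SCL3 OE, against 2173, 2019 and 2052 in ga1-3 (-0.71, SE 0.09). All 3 genes were lower on every SCL3 OE array. Over all tested probe sets, 53.6% did not overlap in either direction in this comparison. UGT84A3, which encodes a glucosyltransferase acting on hydroxycinnamates and stands in the list of TGA factors and detoxification targets, rose to 118, 137 and 120 in SCL3 OE, against 44.1, 65.9 and 64.9 in ga1-3 (1.12, SE 0.22). Every ga1-3 array was below the filter level, and with the offset of 50 the change of UGT84A3 was 0.70. The root markers AT1G09750 (-1.14, SE 0.10) and EXPA7 (-0.37, SE 0.12) fell in the same comparison, and of the green tissue markers RCA rose (0.32, SE 0.10) and LHCB4.1 fell (-0.51, SE 0.12). The call of EXPA7 ended by quantiles (0.103) and on leaving out replicate 1 of ga1-3 (0.0942) or replicate 1 (0.0685) or 2 (0.0555) of SCL3 OE, and the call of RCA on leaving out replicate 1 of ga1-3 (0.0542) or any SCL3 OE array (0.0514 to 0.0629).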

How the data were processed

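The deposited intensity values are MAS5 signals per probe set, which the authors computed in Affymetrix Expression Console 1.1 per the submitters' processing notes. Per the labels' protocols, growth was on MS medium in cycles of 16 h light and 8 h darkness at 22 °C, and labelling started from 300 ng of RNA. The 2% trimmed mean was 496 to 497 on all arrays, so they had been scaled alike, and the deposited scaling was kept. Equal trimmed means do not show that this scaling suits arrays whose medians differ. Of 22746 probe sets 14117 were kept by the filter, and a group-means model over 9 arrays was fitted with limma 3.58.1 in R 4.3.3 (eBayes with trend, 6 residual and 9.37 prior degrees of freedom). Tests were two-sided with Benjamini-Hochberg adjustment over all kept probe sets. No detection calls were used, and the number of arrays limits the precision. The labels state biological triplicates.

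Probe sets were named through a platform table (13513 with 1 gene, 503 with several) and RefSeq gene IDs, and all 52 loci matched. The members and lists were chosen with earlier results of these data known. Every member on its own probe set is reported, with arrays given for called genes whose groups do not overlap, for the 4 smallest p in scl3-1, and from each list for up to 3 called genes. The neighbour pairs, and the arrays of GSTU26 and GSTU27 in SCL3 OE, GSTU23 in scl3-1 and the dim genes, were chosen after seeing the values. Same-numbered replicates did not deviate together (r -0.19 to 0.177 over 9 pairs, 3 of them over 0.1). Alternatives for the list genes were added after seeing the data.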

Additional observations from a re-analysis of the deposited data

Results flagged for a closer look

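GSTL3 stood on opposite sides of ga1-3 in the lines, lower on every SCL3 OE array and higher on every scl3-1 array. The difference between the lines' changes, tested as SCL3 OE against scl3-1, was -1.07 on the log2 scale (SE 0.10, limma adjusted p = 7.44e-07). The change in scl3-1 alone was not called (0.29, adjusted p = 0.265). The pattern was not particular to GSTL3. AT2G31790, UGT74B1 and the root marker AT1G09750 were also lower on every SCL3 OE array and higher on every scl3-1 array than in ga1-3. Their changes in scl3-1 were 0.32, 0.19 and 0.26, none of them called. In the other list and marker genes on named probe sets, scl3-1 and ga1-3 overlapped. The share of all tested probe sets with this pattern was not counted.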

How the results depend on the processing

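In SCL3 OE against ga1-3 the count of 7 transferase genes became 4 of 7 tested with the dim filter at the 60th percentile. Fewer genes were tested there, and 49.5% of all tested probe sets were called. At 2-fold or more the count was 2, both higher, beside 2.22% of all tested probe sets. With any 1 array left out it was 7 to 8, beside 35.5% to 45.5% of all tested probe sets. In SCL3 OE against scl3-1 the count of 9 became 6 to 9 with 1 array left out, beside 30.6% to 42%. The count became 3 at 2-fold or more, where the share of all tested probe sets was not counted. In scl3-1 against ga1-3 it was 0 throughout, with 0 to 0 called on leaving out arrays. The replicate numbers share only a number. With a replicate block, the counts were 7, 0 and 9. Changes near 0 reversed their sign when 1 array was left out, with ranges of -0.11 to 0.18 for GSTU26 and -0.0089 to 0.30 for ATGSTF13 in SCL3 OE against ga1-3, and in scl3-1 against ga1-3 of -0.0771 to 0.0325 for GSTU22, -0.13 to 0.0672 for GSTU25, -0.0043 to 0.29 for GSTU26, -0.0599 to 0.0124 for GSTU28 and -0.18 to 0.068 for GSTF4. GSTF4 was also 0.0373 there with array weights, and GSTU26 was 0.0112 in SCL3 OE against scl3-1 with median-centred arrays. Median-centring moved the median change of all tested probe sets in SCL3 OE against scl3-1 to 0.06, beside -0.07 as deposited. The share of calls that were higher became 53.4% in place of 41.0% in SCL3 OE against ga1-3, and 59.0% in place of 39.6% against scl3-1. In scl3-1 against ga1-3 that share was 59.2% in place of 68.4%. No probe set was shared among members only, so that alternative gave no value. Without trend, limma called 20 of all tested probe sets in scl3-1, 30 with only the 6 arrays compared and 36 without a dim filter, beside 76. With 1 array left out it was 3 to 148, and 123 with array weights. None of these was a tested transferase gene. The cause of these shifts was not tested.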
